A study of Mus musculus with 16 samples.

Results

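Apoptosis through mitochondria is decided by the BCL2 protein family, and the RNA of 10 of its genes was followed in bone marrow-derived DCs (BMDCs). The genes were *Bcl2*, *Bcl2l1*, *Mcl1*, *Bcl2a1b*, *Bax*, *Bak1*, *Bcl2l11*, *Bid*, *Pmaip1* and *Bbc3*. They were taken by symbol from a table of 23356 genes, and each symbol named 1 row. The rule used gene names and no measured values, and the family was chosen with earlier results of these data known.

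The family has 3 kinds of protein. Survival proteins (BCL2, BCL-XL, MCL1 and A1) hold the pore-forming effectors BAX and BAK in check at the mitochondrial outer membrane, and BH3-only proteins (BIM, BID, NOXA and PUMA) bind the survival proteins or the effectors and so promote pore opening and release of cytochrome c. DCs are short-lived after activation, and the balance of these proteins is known to set how long an activated DC lives.

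Bone marrow of C57BL/6 wild-type mice and of *Tmem173*-/-, *Irf1*-/- and *Irf3/7*-/- mice was cultured with GM-CSF and IL-4 to give BMDCs. *Tmem173* encodes STING, the receptor of c-di-GMP, and IRF1, IRF3 and IRF7 are transcription factors that act in interferon and STING responses. The cells were left untreated (NT) or were given c-di-GMP (CDG), a bacterial cyclic dinucleotide, for 18 h, at 25 μg/ml according to the sample labels. The study's text gives a higher dose for these cells, so the dose is in doubt. There were 8 conditions and 2 samples in each, and the authors combined both samples into 1 FPKM per gene and condition, with an interval. FPKM scales a gene's fragments to transcript length and to the library, so levels can be compared between genes. Values of single samples were not used here, so no spread between replicates, no depth and no test over replicates can be given. The labels do not say whether the samples of a condition came from separate cultures or mice.

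Calls rested on 4 conditions: log2(FPKM + 0.1) differed by more than 2-fold, the authors' intervals did not overlap, at least 1 of the compared conditions reached 1 FPKM and the status was OK in both. The interval reached from 22.3% to 36.4% above or below the FPKM for the 10 genes. All 10 genes passed the minimum and had the status OK in all 8 conditions. The comparisons of the 3 knockouts with wild-type BMDCs share the wild-type values.

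The targeted genes were checked first. In *Tmem173*-/- BMDCs the level of *Tmem173* was 8.97 FPKM untreated and 7.49 FPKM treated, where the other conditions held 77.0 to 118 FPKM. *Irf7* was at 1.07 and 4.97 FPKM in BMDCs labelled *Irf3/7*-/- and at 687 FPKM in treated wild-type BMDCs. *Irf1* was at 25.9 and 116 FPKM in *Irf1*-/- BMDCs, and at 149 and 245 FPKM in wild-type BMDCs. RNA of *Irf1* was thus still present in *Irf1*-/- BMDCs, at a lower level than in wild-type BMDCs of the same treatment. *Irf3* was at 7.74 FPKM in untreated BMDCs labelled *Irf3/7*-/- but at 20.2 FPKM in the treated ones, against 19.9 and 15.8 FPKM in wild-type BMDCs, so the treated condition went against its label for this gene. Directions drawn from it are given for cells labelled *Irf3/7*-/-. The summed FPKM of 10 DC markers lay between 16310 and 27024 in the 8 conditions, and *Ccl17* alone gave 8620 to 17101 FPKM. Another marker, *Ccl22*, was listed at 0 without a valid estimate in treated wild-type and *Irf1*-/- BMDCs and in treated cells labelled *Irf3/7*-/-. These sums thus hold 9 markers. *Cd209a* was also at 0 in treated wild-type BMDCs. Against treated wild-type, *H2-Aa* and *H2-Ab1* were called lower and no DC marker higher in treated *Irf1*-/- BMDCs. In treated *Tmem173*-/- BMDCs *Itgax* and *Cd209a* were called higher and *Cd86* lower. Markers of other cells were also present and were unevenly spread. The summed level of 11 T cell markers was 92.3 and 166 FPKM in untreated and treated BMDCs labelled *Irf3/7*-/-, 69.2 and 51.1 FPKM in wild-type cells, 8.78 and 14.8 FPKM in *Irf1*-/- and 5.10 and 4.46 FPKM in *Tmem173*-/- BMDCs. The summed level of 10 neutrophil markers was 20060 and 14577 FPKM in *Tmem173*-/- BMDCs and between 1434 and 4094 FPKM elsewhere. In such bulk RNA, fewer cells of a type and less RNA per cell cannot be told apart.

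Over the 10 comparisons between a pair of conditions, 12 of 100 values were called, and they belonged to 5 genes. In the same comparisons between 0.0552% and 26.3% of all genes were called, so the pooled count shows no excess of calls. *Bcl2* was called in 4 comparisons, *Bcl2l11* and *Pmaip1* in 3 each, and *Bbc3* and *Bcl2a1b* in 1 each. *Bcl2l1*, *Mcl1*, *Bax*, *Bak1* and *Bid* were called in none. Without the treated condition labelled *Irf3/7*-/-, which leaves 8 comparisons, 10 of 80 values were called and they still came from 5 genes. The shares of all genes called in these 8 comparisons spanned the same range.

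The calls were spread unevenly over the comparisons, and each count is given beside the share of all genes called in the same comparison. In wild-type BMDCs c-di-GMP gave 1 call (*Bcl2*, lower), where 20.5% of 11201 genes were called. In *Tmem173*-/- BMDCs it gave 0 calls, where 0.0552% of genes, or 6 of 10867, were called. In *Irf1*-/- BMDCs it gave 1 call (*Bcl2*, lower) beside 17.5% of all genes, and in cells labelled *Irf3/7*-/- 0 calls beside 17.9%. The family thus had no larger share of calls than all genes in any genotype where treatment moved many genes. Its median was nevertheless above 0. The median log2 difference of the 10 genes with treatment was 0.49 in wild-type, 0.68 in *Irf1*-/- and 0.41 in cells labelled *Irf3/7*-/-, and over all genes compared it was 0.0033, 0.0016 and 0.0045. In *Tmem173*-/- BMDCs the family's median was -0.10.

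Among treated cells, *Tmem173*-/- BMDCs differed from wild-type in 5 of the 10 genes, where 26.3% of all genes were called. *Bcl2* was higher, and *Pmaip1*, *Bcl2l11*, *Bbc3* and *Bcl2a1b* were lower. The median of the 10 was -0.88 on the log2 scale and that of all genes 0.018, and the value was below 0 for 9 of the 10. Treated *Irf1*-/- BMDCs differed in 1 gene (*Bcl2l11*, lower), beside 7.56% of all genes. Treated cells labelled *Irf3/7*-/- differed in 2 genes (*Bcl2*, higher, and *Pmaip1*, lower), beside 7.30% of all genes. Among untreated cells the counts were 1 in *Tmem173*-/- (*Pmaip1*, lower) beside 11.0% of all genes, 1 in *Irf1*-/- (*Bcl2l11*, lower) beside 4.78%, and 0 in *Irf3/7*-/- beside 2.04%. Whether the response itself differed was read from the difference of the log2 changes with treatment. *Bcl2* was called in *Tmem173*-/- BMDCs, beside 21.2% of all genes, and in cells labelled *Irf3/7*-/-, beside 6.07% of all genes. None of the 10 genes was called in *Irf1*-/- BMDCs, beside 4.72% of all genes.

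**Figure D1:**
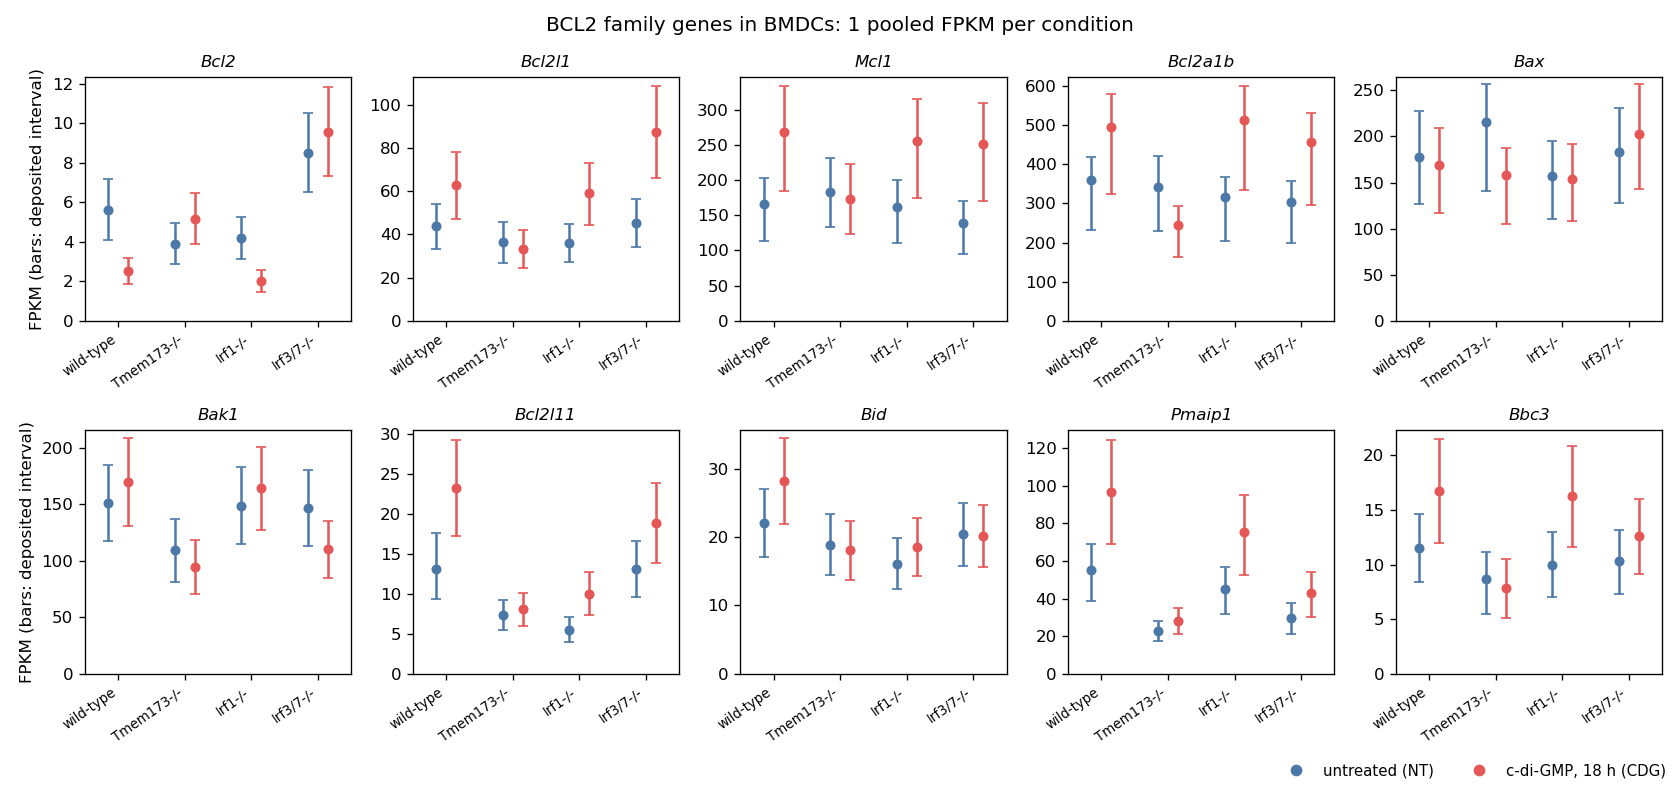
FPKM (vertical axis, starting at 0) of the 10 BCL2 family genes in the 4 genotypes, untreated (blue) or treated with c-di-GMP (red). Points are the deposited values and bars the authors' intervals. *Bcl2* was lower in treated wild-type (2.51 FPKM) and *Irf1*-/- cells (2.02 FPKM) and reached 9.57 FPKM in treated cells labelled *Irf3/7*-/-, and *Pmaip1* peaked at 96.6 FPKM in treated wild-type cells.

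*Bcl2* was the survival gene with the widest range, 4.74-fold between its lowest and highest condition, and also the one with the lowest level. It lies at chr1:106538178-106714274 on the minus strand of GRCm38. In wild-type BMDCs *Bcl2* was at 5.63 FPKM (interval 4.07 to 7.19) untreated and 2.51 FPKM (1.87 to 3.16) treated. Untreated *Irf1*-/- BMDCs had 4.18 FPKM (3.11 to 5.25) and treated ones 2.02 FPKM (1.46 to 2.58). The fall after treatment was 2.24-fold in wild-type BMDCs, a log2 difference of -1.13, and 2.07-fold in *Irf1*-/- BMDCs, a log2 difference of -1.01. In these 2 genotypes the intervals of treated and untreated cells did not overlap. Both calls were lost with a pseudocount of 1 FPKM (log2 differences -0.92 and -0.78), and that of *Irf1*-/- also with a minimum of 5 FPKM.

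The remaining genotypes did not show this fall. *Bcl2* was at 3.90 FPKM (2.87 to 4.94) in untreated and 5.16 FPKM (3.86 to 6.46) in treated *Tmem173*-/- BMDCs. In cells labelled *Irf3/7*-/- it was at 8.51 FPKM (6.50 to 10.5) untreated and 9.57 FPKM (7.31 to 11.8) treated. Both pairs of intervals overlapped, and the log2 differences with treatment were 0.39 and 0.17. Compared with the change in wild-type BMDCs, the change was higher by 1.53 on the log2 scale in *Tmem173*-/- (interval 0.79 to 2.27) and by 1.30 in cells labelled *Irf3/7*-/- (0.59 to 2.01). For *Irf1*-/- BMDCs the change was higher by 0.12 (-0.63 to 0.87), an interval that still holds differences of more than 1.5-fold in either direction.

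Among treated cells, *Bcl2* was 2.05-fold higher in *Tmem173*-/- and 3.81-fold higher in cells labelled *Irf3/7*-/- than in wild-type BMDCs. The first of these calls lay at the edge of the threshold and was lost with a pseudocount of 1 FPKM (log2 difference 0.81) or with median centring of the conditions (0.96). Among untreated cells *Bcl2* was called in no knockout against wild-type: the log2 differences were -0.52 for *Tmem173*-/-, -0.42 for *Irf1*-/- and 0.59 for *Irf3/7*-/- BMDCs. The propagated interval of the last, 0.07 to 1.11, left out 0. The levels in order were 2.02 and 2.51 FPKM in treated *Irf1*-/- and wild-type, 3.90 to 5.63 FPKM in 4 conditions whose intervals overlap, and 8.51 and 9.57 FPKM in the cells labelled *Irf3/7*-/-. Neighbouring steps of this order overlapped as well: treated wild-type reached 3.16 FPKM and untreated *Tmem173*-/- began at 2.87 FPKM, and untreated wild-type reached 7.19 FPKM and untreated *Irf3/7*-/- began at 6.50 FPKM.

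*Bcl2* is also expressed in lymphocytes, so its values are set beside markers of other cells. Where *Bcl2* was highest, in treated cells labelled *Irf3/7*-/-, the 11 T cell markers summed to 166 FPKM, and all 11 were called higher than in treated wild-type BMDCs. The same held for all 6 NK cell markers that could be called, whose list of 8 summed to 1096 FPKM against 378 FPKM, and for all 7 markers of basophils and mast cells. The part of these cells in the *Bcl2* value was not tested. In *Tmem173*-/- BMDCs the T and NK cell lists summed to between 4.46 and 7.33 FPKM, with *Zap70*, *Ncr1* and *Gzma* listed at 0 in at least 1 condition, while *Bcl2* was at 3.90 and 5.16 FPKM. In *Irf1*-/- BMDCs *Bcl2* fell with treatment while the T cell list was at 8.78 and 14.8 FPKM and the NK cell list at 12.5 and 12.6 FPKM. In wild-type BMDCs, where *Bcl2* also fell, the T cell list was at 69.2 and 51.1 FPKM and the NK cell list at 419 and 378 FPKM. There the T cell markers *Zap70* and *Cd5* and the NK cell markers *Klrb1c* and *Eomes* were called lower with treatment, and none of either list higher. The part of these cells in the fall of *Bcl2* was not tested.

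**Figure D2:**
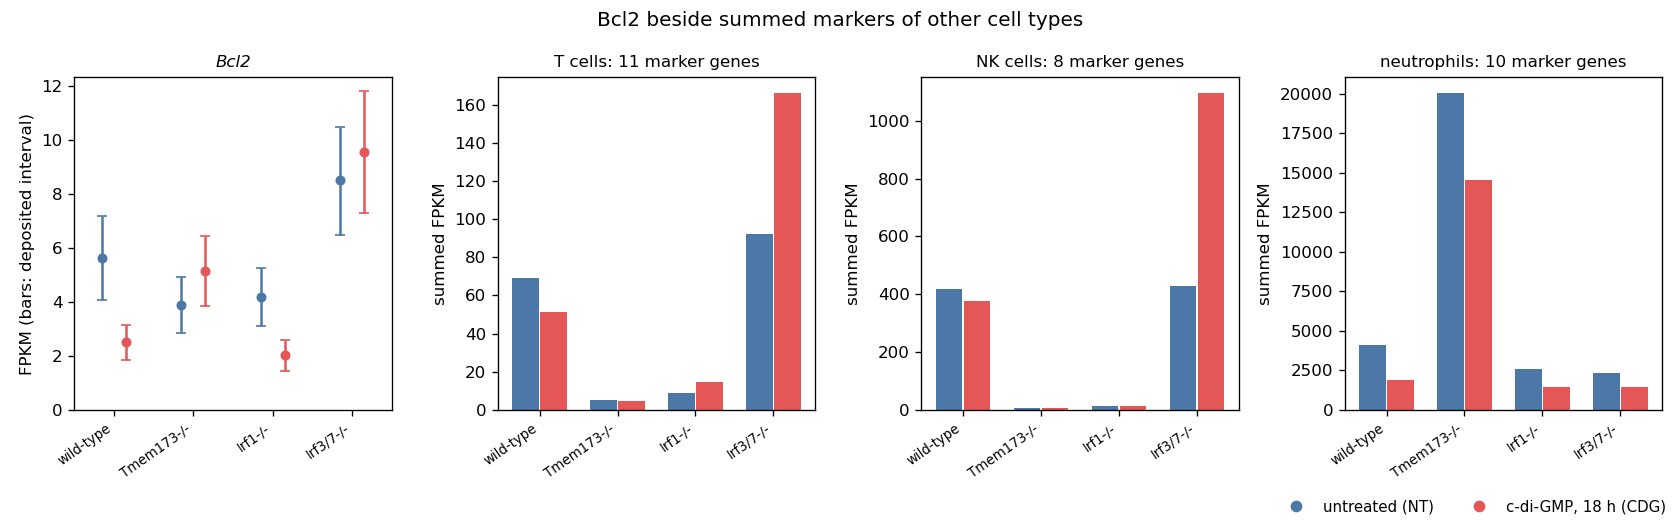
FPKM of *Bcl2* with the authors' intervals (left) and the summed FPKM of T cell, NK cell and neutrophil marker genes (bars from 0) in the 4 genotypes, untreated (blue) or treated with c-di-GMP (red). The T and NK cell sums peaked in treated cells labelled *Irf3/7*-/- (166 and 1096 FPKM), where *Bcl2* was also highest, and the neutrophil sum peaked in untreated *Tmem173*-/- cells (20060 FPKM).

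*Bcl2l1*, which encodes BCL-XL, lies at chr2:152780668-152831728 on the minus strand and was called in no comparison. It was at 43.8 and 62.8 FPKM in untreated and treated wild-type BMDCs, 36.4 and 33.3 FPKM in *Tmem173*-/-, 36.1 and 58.9 FPKM in *Irf1*-/-, and 45.3 and 87.3 FPKM in cells labelled *Irf3/7*-/-. Treated values were above untreated ones in all genotypes but *Tmem173*-/-, with log2 differences of 0.52, 0.71 and 0.94 in wild-type, *Irf1*-/- and cells labelled *Irf3/7*-/-. The last was 1.93-fold with intervals that did not overlap, and it was called at a threshold of 1.5-fold.

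*Mcl1* encodes a survival protein with a short half-life that NOXA targets for destruction, and its locus is chr3:95658788-95663176 on the plus strand. It was at 166 and 268 FPKM without and with treatment in wild-type BMDCs, 182 and 174 FPKM in *Tmem173*-/-, 162 and 256 FPKM in *Irf1*-/-, and 139 and 252 FPKM in cells labelled *Irf3/7*-/-. No comparison was called. Treated cells held 1.62-fold the untreated level in wild-type, 1.58-fold in *Irf1*-/- and 1.82-fold in cells labelled *Irf3/7*-/-, and the log2 difference in *Tmem173*-/- was -0.07.

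*Bcl2a1b* had the highest level of the 10 genes in all 8 conditions, but its value is uncertain. It encodes a copy of A1, a survival protein of blood cells whose gene exists in near-identical copies on mouse chromosome 9. Of the 35-base words in its GENCODE transcripts, as long as 1 read, 86.1% were shared with other genes, 68.7% with *Bcl2a1d* and 52.6% with *Bcl2a1a*. For *Bax* the share was 10.5%, and for the other 8 genes under 0.5%. The likeness extends into the promoters. The stretch of 100 bases up to the RefSeq start site of *Bcl2a1a* and the same stretches of *Bcl2a1b* and *Bcl2a1d* (RefSeq, GRCm38.p6) are shown 5′ to 3′ on the strand of each gene, since they show how alike the copies are. Capitals mark the 2 positions at which the 3 copies are not all equal, and the other 98 are the same in all 3. The stretches lie at chr9:88956820-88956919 (plus strand), chr9:89199129-89199228 (plus strand) and chr9:88731851-88731950 (minus strand).
Bcl2a1a: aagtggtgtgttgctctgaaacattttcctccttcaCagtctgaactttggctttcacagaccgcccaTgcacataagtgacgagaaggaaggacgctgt
Bcl2a1b: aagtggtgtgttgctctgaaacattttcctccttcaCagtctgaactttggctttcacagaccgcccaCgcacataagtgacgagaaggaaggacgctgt
Bcl2a1d: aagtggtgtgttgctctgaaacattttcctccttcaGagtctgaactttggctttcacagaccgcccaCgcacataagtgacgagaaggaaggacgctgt

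With that limit, *Bcl2a1b* was at 360 and 496 FPKM in untreated and treated wild-type BMDCs, 342 and 244 FPKM in *Tmem173*-/-, 317 and 514 FPKM in *Irf1*-/-, and 305 and 457 FPKM in cells labelled *Irf3/7*-/-. Treated *Tmem173*-/- BMDCs were the lowest, and their value was 2.03-fold lower than in treated wild-type BMDCs, a log2 difference of -1.02 that was called. When the FPKM of *Bcl2a1a*, *Bcl2a1b* and *Bcl2a1d* were added up, the same comparison was 422 against 767 FPKM, a log2 difference of -0.86, and no longer reached 2-fold. *Bcl2a1b* made up between 57.9% and 65.2% of that sum in the 8 conditions.

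Of the effector genes, *Bax* lies at chr7:45461697-45466898 on the minus strand. It was at 178 and 169 FPKM in untreated and treated wild-type BMDCs, 216 and 158 FPKM in *Tmem173*-/-, 157 and 154 FPKM in *Irf1*-/-, and 183 and 203 FPKM in cells labelled *Irf3/7*-/-, and its range of 1.41-fold was the narrowest of the 10. *Bak1*, at chr17:27019810-27029009 on the minus strand, was at 151 and 170 FPKM in wild-type, 109 and 94.8 FPKM in *Tmem173*-/-, 149 and 164 FPKM in *Irf1*-/-, and 147 and 110 FPKM in cells labelled *Irf3/7*-/-. Neither gene was called in any comparison. The lowest *Bak1* value, in treated *Tmem173*-/- BMDCs, was 1.79-fold below treated wild-type BMDCs with intervals that did not overlap. The *Bak1* locus of the table overlaps that of *Ggnbp1*, and it is not known how reads in the overlap were divided.

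*Bcl2l11* encodes BIM, the BH3-only protein that binds all survival proteins and is needed for the death of many blood cells. Its locus is chr2:128126038-128162547 on the plus strand. In wild-type BMDCs it was at 13.0 FPKM (interval 9.40 to 17.5) untreated and 23.2 FPKM (17.2 to 29.1) treated. Untreated *Irf1*-/- BMDCs had 5.50 FPKM (3.97 to 7.03) and treated ones 10.0 FPKM (7.29 to 12.7). Both *Irf1*-/- values were lower than the wild-type values of the same treatment, by 1.23 on the log2 scale without treatment and by 1.20 with it, and both differences were called. The difference with treatment was nearly the same in both genotypes, 0.85 in *Irf1*-/- and 0.83 in wild-type on the log2 scale, and the interval of the difference between them reached from -0.80 to 0.85.

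*Bcl2l11* was low in *Tmem173*-/- BMDCs too. There it was at 7.32 FPKM (5.42 to 9.22) untreated and 8.05 FPKM (6.00 to 10.1) treated, and the treated value was 2.88-fold lower than in treated wild-type BMDCs, which was called. *Irf1* RNA was at 24.1 and 23.3 FPKM in these cells, below both wild-type values given above. The *Irf1* RNA left in *Irf1*-/- BMDCs is no measure of IRF1 protein, so the knockouts are not ordered by it. The part of *Irf1* in the *Bcl2l11* values of *Tmem173*-/- BMDCs was not tested. The untreated *Tmem173*-/- value of *Bcl2l11* was 1.78-fold below wild-type, with intervals that did not overlap, and was not called. In cells labelled *Irf3/7*-/- the gene was at 13.1 FPKM (9.62 to 16.6) and 18.9 FPKM (13.8 to 23.9), within the intervals of the wild-type values of the same treatment. The order of levels thus ran from untreated *Irf1*-/- at 5.50 FPKM to treated wild-type at 23.2 FPKM. The intervals of untreated wild-type, untreated cells labelled *Irf3/7*-/- and treated *Irf1*-/- cells overlapped. Markers of other cells also differed. The NK cell list summed to 12.5 and 12.6 FPKM in untreated and treated *Irf1*-/- and to 7.33 and 6.09 FPKM in *Tmem173*-/- BMDCs. It summed to 419 and 378 FPKM in wild-type BMDCs and to 428 and 1096 FPKM in cells labelled *Irf3/7*-/-. In untreated *Irf1*-/- BMDCs 6 of 9 macrophage markers were called lower than in wild-type and none higher. The part of these cells in the *Bcl2l11* values was not tested.

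*Pmaip1* encodes NOXA, which binds MCL1 and A1. It was at 55.1 FPKM (38.5 to 69.1) in untreated and 96.6 FPKM (69.0 to 124) in treated wild-type BMDCs, a difference of 1.75-fold that was not called. *Tmem173*-/- BMDCs had the lowest levels, 22.6 FPKM (17.4 to 27.9) and 28.0 FPKM (21.0 to 34.9). They were called lower than wild-type both untreated, 2.43-fold, and treated, 3.45-fold. The treated ratio was the largest fall of any of the 10 genes in any of the 10 comparisons.

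*Pmaip1* was also low in cells labelled *Irf3/7*-/-, at 29.8 FPKM (21.0 to 37.6) untreated and 43.2 FPKM (30.4 to 54.1) treated. The treated value was called lower than in treated wild-type BMDCs, by 1.16 on the log2 scale. The untreated value was 1.85-fold lower with intervals that did not overlap, and was called at a threshold of 1.5-fold. In *Irf1*-/- BMDCs *Pmaip1* was at 44.9 FPKM (31.8 to 56.5) and 75.3 FPKM (52.7 to 94.9), overlapping the wild-type intervals. Against wild-type, *Bcl2l11* was called lower in *Irf1*-/- and *Pmaip1* in treated cells labelled *Irf3/7*-/-, while both were called lower in treated *Tmem173*-/- BMDCs. No call was made between *Irf1*-/- BMDCs and cells labelled *Irf3/7*-/-. Their *Pmaip1* intervals overlapped with and without treatment, and their *Bcl2l11* intervals did not. The differences of the treatment response of *Pmaip1* and *Bcl2l11* from wild-type were called in no knockout, with intervals such as -1.28 to 0.27 and -1.50 to 0.11 in *Tmem173*-/- BMDCs.

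*Bbc3*, which encodes PUMA, a BH3-only protein best known as a target of p53, lies at chr7:16308393-16318205 on the plus strand. It was at 11.5 and 16.7 FPKM in untreated and treated wild-type BMDCs, 8.64 and 7.85 FPKM in *Tmem173*-/-, 10.0 and 16.3 FPKM in *Irf1*-/-, and 10.3 and 12.6 FPKM in cells labelled *Irf3/7*-/-. Only the comparison of treated *Tmem173*-/- with treated wild-type BMDCs was called, 2.13-fold lower. *Bid*, at chr6:120891930-120916853 on the minus strand, encodes the BH3-only protein that links death receptors to mitochondria once caspase-8 has cut it. It was at 22.1 and 28.2 FPKM in wild-type, 18.9 and 18.0 FPKM in *Tmem173*-/-, 16.1 and 18.6 FPKM in *Irf1*-/-, and 20.4 and 20.1 FPKM in cells labelled *Irf3/7*-/-, and was called in no comparison.

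**Figure D3:**
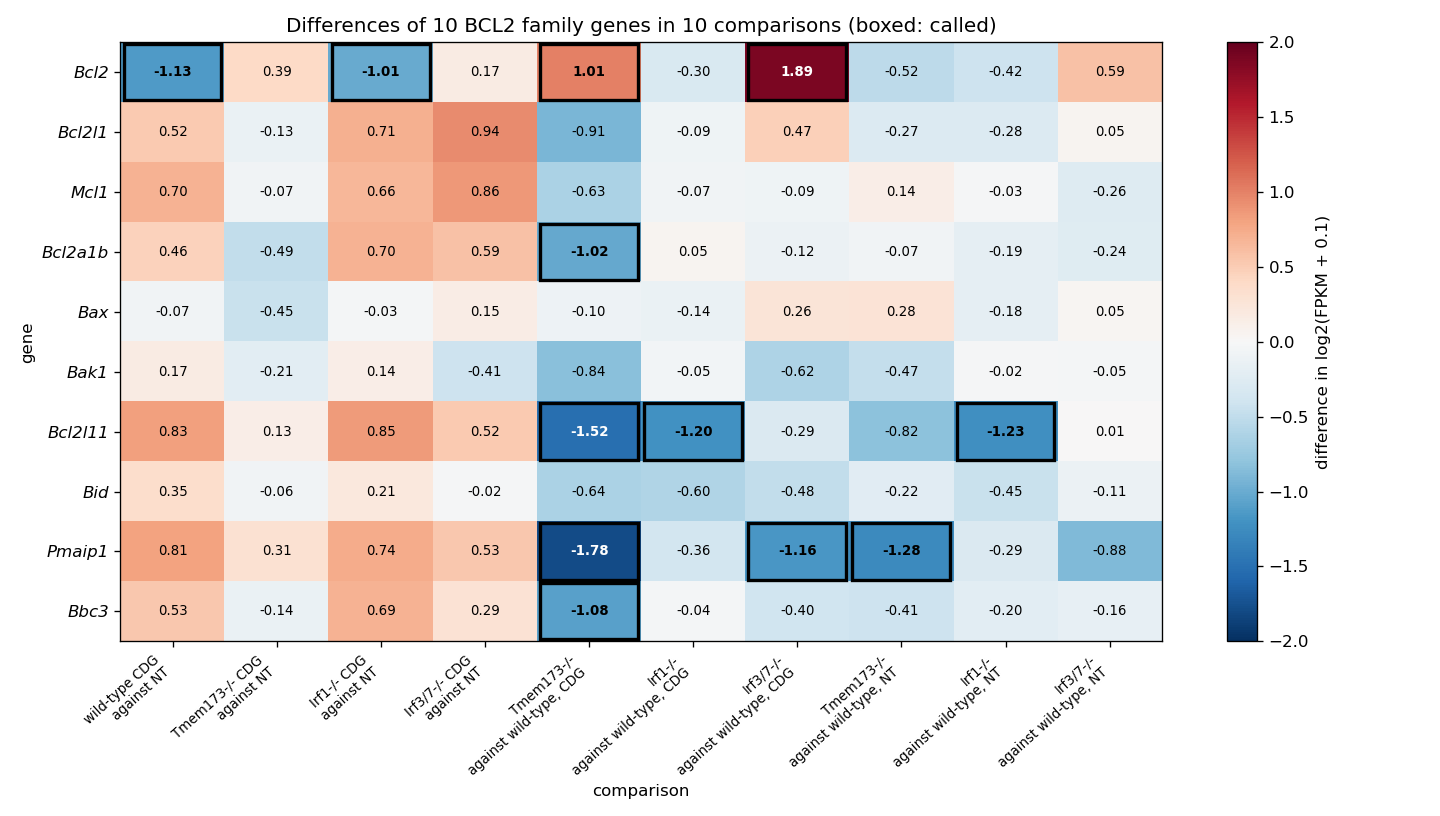
Differences in log2(FPKM + 0.1) of the 10 genes (rows) in the 10 comparisons (columns), red where the first-named condition is higher and blue where it is lower; boxed values in bold were called. The comparison of treated *Tmem173*-/- with treated wild-type BMDCs holds 5 boxes, from -1.78 for *Pmaip1* to 1.01 for *Bcl2*.

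Sums and ratios put the genes of a role together. The 4 BH3-only genes summed to 102 and 165 FPKM in untreated and treated wild-type BMDCs, 76.5 and 120 FPKM in *Irf1*-/-, 73.7 and 94.8 FPKM in cells labelled *Irf3/7*-/-, and 57.5 and 62.0 FPKM in *Tmem173*-/-, and *Pmaip1* was the largest part in each. The 4 survival genes summed to 575 and 829 FPKM in wild-type cells, 519 and 832 FPKM in *Irf1*-/-, 497 and 806 FPKM in cells labelled *Irf3/7*-/-, and 565 and 456 FPKM in *Tmem173*-/-. *Bcl2a1b*, whose value is uncertain, made up between 53.5% and 62.6% of the survival sum. Sums of both roles were thus higher with treatment in the 3 genotypes other than *Tmem173*-/-. No call was made on sums.

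The ratio of *Bcl2* to *Bcl2l11* was 0.432 (interval 0.277 to 0.672) in untreated and 0.108 (0.0753 to 0.156) in treated wild-type BMDCs. The *Irf1*-/- ratios were 0.760 (0.521 to 1.11) and 0.202 (0.137 to 0.297). In both genotypes the intervals of untreated and treated cells did not overlap. In *Tmem173*-/- BMDCs the ratio was 0.533 (0.368 to 0.773) and 0.641 (0.448 to 0.917), and in cells labelled *Irf3/7*-/- 0.648 (0.454 to 0.926) and 0.507 (0.354 to 0.725), each pair overlapping. The more abundant survival genes did not show such a fall against *Bcl2l11*. In wild-type BMDCs *Mcl1* to *Bcl2l11* was 12.7 (7.94 to 20.3) untreated and 11.6 (7.72 to 17.4) treated. *Bcl2l1* to *Bcl2l11* was 3.36 (2.21 to 5.11) and 2.71 (1.90 to 3.87). For both ratios the untreated and treated intervals overlapped in every genotype. The ratio of *Mcl1* to *Pmaip1* was 3.01 (1.94 to 4.66) and 2.78 (1.82 to 4.25) in wild-type and 8.05 (5.63 to 11.5) and 6.20 (4.23 to 9.09) in *Tmem173*-/- BMDCs. It was 3.62 (2.35 to 5.57) and 3.40 (2.19 to 5.28) in *Irf1*-/- BMDCs and 4.65 (3.01 to 7.19) and 5.84 (3.77 to 9.04) in cells labelled *Irf3/7*-/-. These are ratios of RNA, not of protein.

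**Figure D4:**
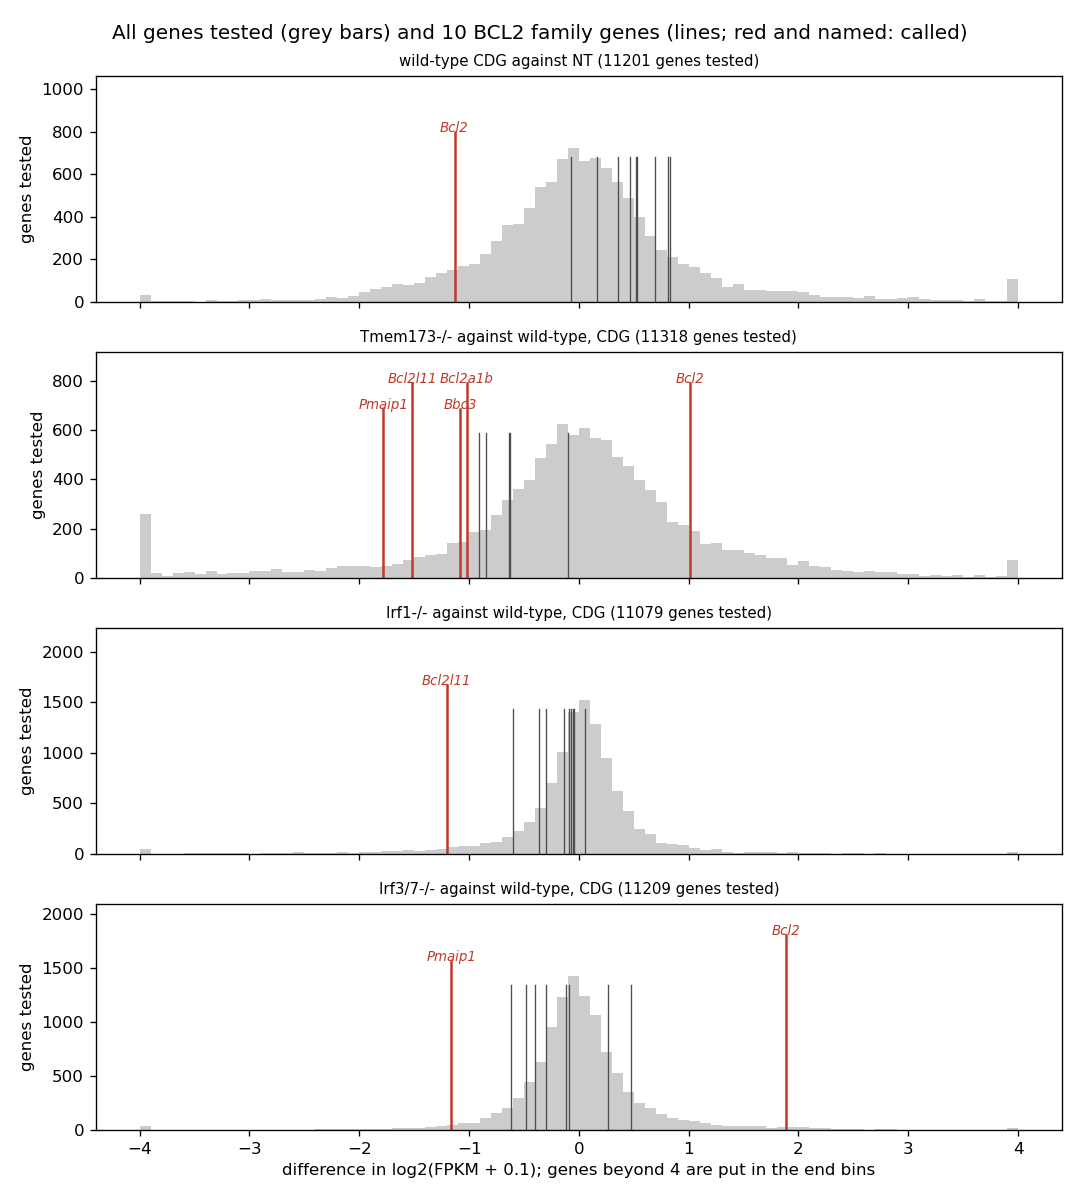
Number of genes (vertical axis) by difference in log2(FPKM + 0.1) (horizontal axis) in 4 comparisons, with grey bars for all genes compared and lines for the 10 BCL2 family genes, red and named where called; the height of a line has no meaning. In treated *Tmem173*-/- against treated wild-type BMDCs 9 of 10 lines lie below 0 with a median of -0.88, and in treated *Irf1*-/- against wild-type BMDCs the median is -0.12.

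The other genes of the family were read from a list of 14, of which 9 reached 1 FPKM. The remaining 5 (*Bcl2l10*, *Bok*, *Bik*, *Hrk* and *Bcl2l15*) stayed below 1 FPKM in every condition. *Bcl2l14*, a poorly understood relative, was at 1.32 and 3.75 FPKM in untreated and treated wild-type BMDCs and rose 2.83-fold. In treated cells it was called lower than wild-type in *Tmem173*-/- (0.91 FPKM) and *Irf1*-/- (1.80 FPKM), and was at 2.35 FPKM in cells labelled *Irf3/7*-/-. *Bad*, a BH3-only gene whose product is controlled by phosphorylation, was at 34.3 FPKM in treated wild-type and 17.0 FPKM in treated *Tmem173*-/- BMDCs, a difference that was called at 2.01-fold, and its locus overlaps *Gpr137*. *Bmf*, another BH3-only gene, was between 9.06 and 15.5 FPKM and the survival gene *Bcl2l2* between 9.28 and 17.5 FPKM. *Bcl2l13* was between 6.42 and 8.65 FPKM, *Bcl2a1a* between 89.1 and 130 FPKM, *Bcl2a1c* between 5.62 and 8.28 FPKM and *Bcl2a1d* between 83.6 and 181 FPKM, and none of these 6 was called.

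*Bcl2l12* was singled out because it is the neighbour of *Irf3*. The RefSeq start sites of these genes are 69 bases apart and point away from each other, and their GENCODE genes overlap by 1065 bases. The 68 bases between the start sites are shown since both genes start at their ends. They are chr7:44997580-44997647 of GRCm38.p6 (RefSeq), on the plus strand, which is that of *Irf3*.
Between Bcl2l12 and Irf3: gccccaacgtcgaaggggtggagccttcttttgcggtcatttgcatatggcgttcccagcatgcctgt

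*Bcl2l12* was at 3.06 FPKM (1.90 to 4.23) in untreated cells labelled *Irf3/7*-/- and at 7.72 FPKM (5.42 to 10.1) in the treated ones. Its other values lay between 6.03 and 9.21 FPKM. The untreated value was called lower than in wild-type, by 1.35 on the log2 scale, and the treated value was called 2.52-fold higher than the untreated. *Irf3* had the same pattern, 7.74 FPKM (5.55 to 9.96) untreated and 20.2 FPKM (14.8 to 25.7) treated. The part of the *Irf3* locus in the *Bcl2l12* value was not tested.

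**Figure D5:**
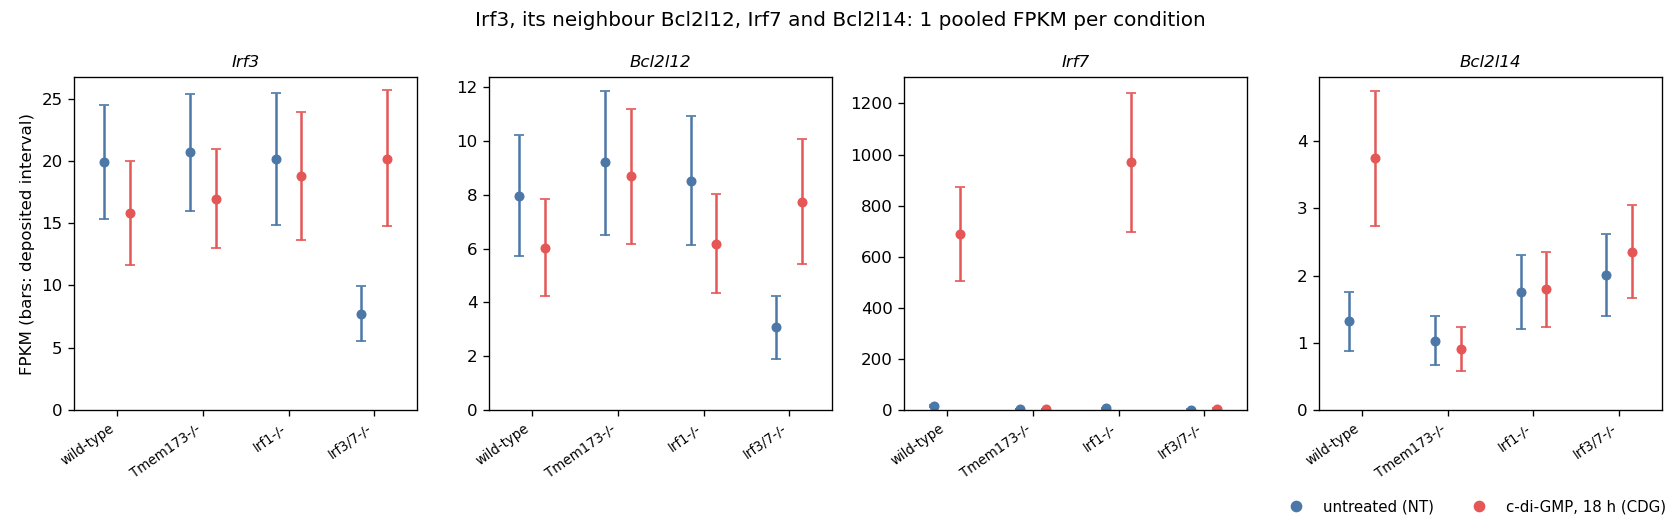
FPKM (vertical axes from 0) of *Irf3*, *Bcl2l12*, *Irf7* and *Bcl2l14* in the 4 genotypes, untreated (blue) or treated with c-di-GMP (red), with the authors' intervals. *Irf3* and *Bcl2l12* were both low in untreated cells labelled *Irf3/7*-/- (7.74 and 3.06 FPKM) and not in the treated ones (20.2 and 7.72 FPKM), while *Irf7* was low in both.

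The apoptosis genes around the family were counted from 5 lists. Of 12 genes of caspases and the apoptosome, 1 rose and none fell when wild-type BMDCs were treated, where 20.5% of all genes were called. It was *Cflar*, the inhibitor of caspase-8, which went from 40.6 to 133 FPKM and was also called in *Irf1*-/- BMDCs and in cells labelled *Irf3/7*-/-. In treated *Tmem173*-/- BMDCs *Cflar* was at 22.6 FPKM and was called lower than in treated wild-type BMDCs, 5.86-fold.

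Of 12 genes of inhibitors of apoptosis and mitochondrial release factors, 2 fell with treatment in wild-type BMDCs and none rose, beside the same 20.5% of all genes. *Birc5*, which encodes survivin and is expressed in dividing cells, fell 3.73-fold and *Aifm1* fell 2.05-fold. In treated *Tmem173*-/- BMDCs both were called higher than in wild-type (3.37-fold and 2.32-fold), and *Htra2*, a protease released from mitochondria, was called lower. *Htra2* was also called lower in treated cells labelled *Irf3/7*-/-, at 33.1 against 78.9 FPKM. None of the 5 genes of MCL1 turnover, of which 4 could be called, was called in wild-type BMDCs with and without treatment or in any treated knockout against treated wild-type BMDCs. *Btrc*, which encodes a ubiquitin ligase subunit, was called higher with treatment in *Irf1*-/- BMDCs, at 4.34 against 2.07 FPKM.

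Of 18 genes of p53 and its targets, 5 rose and 2 fell with treatment in wild-type BMDCs, beside 20.5% of all genes, and the list's median log2 difference was -0.07. *Plk2* rose 3.80-fold and *Mdm2*, the ubiquitin ligase of p53, rose 3.04-fold, while *Bbc3* of the same pathway was not called. In treated *Tmem173*-/- BMDCs 5 were called lower and 3 higher than in wild-type, beside 26.3% of all genes, led by *Plk2* (6.03-fold lower) and *Eda2r* (5.08-fold lower). In treated cells labelled *Irf3/7*-/- 1 was called higher, *Aen*, at 20.5 against 10.2 FPKM. Of 7 genes of transcription factors that act on BH3-only genes, 1 rose and 1 fell with treatment in wild-type BMDCs, again beside 20.5% of all genes. *Ddit3*, the factor CHOP of the stress response of the endoplasmic reticulum, went from 14.7 to 62.4 FPKM and *Myc* from 44.1 to 9.03 FPKM. In treated *Tmem173*-/- BMDCs *Ddit3* was at 10.7 FPKM and *Myc* at 40.0 FPKM, and both differences from wild-type were called, as was that of *Foxo1*, 2.60-fold lower. Of the 10 neutrophil markers, 9 were called higher in the same comparison. Between untreated *Tmem173*-/- and wild-type BMDCs 8 of them were called higher and 1 lower. *Ddit3* and *Myc* were not called there, and *Foxo1* was called lower. The part of neutrophils in the values of these genes was not tested.

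Promoter windows from 250 bases before to 50 after a RefSeq start site were present for 9 of the 10 genes, with 14 windows in all. The core of the interferon response element, GAAANNGAAA on either strand, was found in 3.44% of 32851 mouse promoter windows and in 0 of these 14. The NF-kB motif, searched on either strand, was found in 8.46% of all windows and in 2 of the 14, at 1 start site of *Bcl2l1* and 1 of *Bbc3*. A match is a match of letters only, and its absence says nothing of binding outside the window. The *Bbc3* window is shown from its first base to the start site (chr7:16309333-16309582, plus strand, GRCm38.p6, RefSeq) because it held the match nearest to a start site. Capitals mark the bases of overlapping matches, which begin 137 bases before the start site.
Bbc3: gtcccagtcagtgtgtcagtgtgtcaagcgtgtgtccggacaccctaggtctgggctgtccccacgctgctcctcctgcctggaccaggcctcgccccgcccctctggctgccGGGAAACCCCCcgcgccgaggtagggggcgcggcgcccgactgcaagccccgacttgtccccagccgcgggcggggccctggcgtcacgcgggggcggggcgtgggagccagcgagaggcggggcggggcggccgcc

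Genes with the most similar pattern were found for the 3 family genes of widest range, by Pearson's r of log2(FPKM + 0.1) over the 8 conditions. The conditions are genotypes with and without treatment and are not 8 independent points, so r is a description. For *Bcl2* they were *Prkd2* (r = 0.97), *Mthfd1l* (0.95) and *Psmc6* (0.95), among 7382 genes. *Psmc6* ranged only from 70.2 to 82.7 FPKM and *Prkd2* from 3.90 to 10.3 FPKM. For *Pmaip1* they were *Fnbp1l* (0.97), *Snd1* (0.97) and *Ttyh3* (0.96). For *Bcl2l11* they were *AW112010* (0.98), *4933412E12Rik* (0.98) and *Il18bp* (0.98), which ranged from 1.20 to 113 FPKM.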

How the data were processed

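The authors ran Cuffdiff (version 1.06 in the submitters' processing notes) and deposited FPKM per gene in 8 conditions, with the bounds of an interval (also FPKM) and a status of another kind, a text flag. Both samples of a condition were combined by the authors. The notes name mm9, but 21454 of 21681 loci fell on the equally named gene of GRCm38 (GENCODE M21), so GRCm38 positions are printed. The column heading for treated *Tmem173*-/- cells spells the treatment differently and was read as c-di-GMP. Another 4 columns, of a further knockout, were not used. The aligner and the strand setting of Cuffdiff are not given in the sources used here.

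Log2 differences used a pseudocount of 0.1 FPKM, a minimum of 1 FPKM and a fold threshold of 2. For differences of changes, the distance from FPKM to its bound was read as 2 standard errors and propagated, and a gene was called when the difference passed 2-fold and its interval left out 0. No count model was used. The 10 genes and all lists were chosen with earlier results of these data known. Of other lists, genes were named when in the family and at 1 FPKM or more, or when called with the 2 largest differences per list in wild-type cells with and without treatment or in a treated knockout against wild-type. *Irf1* in *Tmem173*-/-, *Foxo1* and *Btrc* were named after their values were seen. Some results of these lists are not reported here. Cell types were read from marker lists. Alternatives were a pseudocount of 1 FPKM, no minimum or a minimum of 5 FPKM, a threshold of 1.5-fold, median centring, the fold alone, and z from the intervals with q under 0.05. The sum of the *Bcl2a1* copies and the count without the treated condition labelled *Irf3/7*-/- were added after seeing the data. The tools were matplotlib 3.10.9, scipy 1.17.1, pandas 2.3.3 and numpy 2.4.6 under Python 3.11.15.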

Additional observations from a re-analysis of the deposited data

Results flagged for a closer look

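The change of *Bcl2* with c-di-GMP differed between genotypes by the interval of the difference. On the log2 scale it was higher than in wild-type BMDCs by 1.53 in *Tmem173*-/- and by 1.30 in cells labelled *Irf3/7*-/-. In untreated and treated *Tmem173*-/- BMDCs neutrophil markers summed to 20060 and 14577 FPKM, against 1434 to 4094 FPKM elsewhere, and B cell markers to 12.03 and 9.97 FPKM, against 3.79 to 7.40 FPKM elsewhere. The B cell markers *Cd79a* and *Ms4a1* were called higher in the same difference of changes. So were the T cell markers *Zap70* and *Cd5* and the NK cell markers *Klrb1c* and *Eomes*. Of the neutrophil markers *Cxcr2* was called higher, and *Camp* and *Csf3r* lower. The macrophage list had 4 called higher and 3 lower, the DC list 1 and 1, and the list of basophils and mast cells 1 higher. The part of these cells in the first value was not tested. In the treated condition labelled *Irf3/7*-/-, *Irf3* was at 20.2 FPKM and T cell markers summed to 166 FPKM. The parts of the genotype and of other cells in the second value cannot be told apart.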

How the results depend on the processing

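No call reversed its direction under any alternative run, but they could hardly have done this. Most change only which values pass, and a pseudocount keeps the sign of a difference between a pair of conditions. Median centring shifted the pairs by at most 0.048 on the log2 scale. With a pseudocount of 1 FPKM, 0 of the 10 genes were called with c-di-GMP in wild-type and 0 in *Irf1*-/- BMDCs, because the low *Bcl2* values then gave log2 differences of -0.92 and -0.78. With a minimum of 5 FPKM, 0 were called in *Irf1*-/- BMDCs, since *Bcl2* left the comparison. At 1.5-fold the counts were 2 in *Irf1*-/- and 2 in cells labelled *Irf3/7*-/- with treatment, 2 in untreated *Tmem173*-/- and 1 in untreated *Irf3/7*-/- against wild-type. With median centring, 2 genes differed in their change in *Tmem173*-/- BMDCs, the second being *Bcl2a1b*. The other counts stayed within 1.5 times of the values reported. Shares of all genes called were given only for the rule used above. The counts under the alternatives therefore cannot be set against all genes. The calls of *Bcl2l11*, *Pmaip1* and *Bbc3*, and of *Bcl2* in treated cells labelled *Irf3/7*-/-, held under all 7 alternatives. Some of these could not have ended them. No minimum, the threshold of 1.5-fold and the fold alone only loosen the rule. The minimum of 5 FPKM was passed in a compared condition of each call. The pseudocount of 1 FPKM, median centring and z could have ended a call. No paired analysis was possible because the table holds 1 combined value per condition and no columns of single replicates, and for the same reason no replicate could be left out. The intervals, of at least 22.3% of the FPKM for these genes, limit what could be called.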
